A study of Arabidopsis thaliana with 24 samples.

Results

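Small heat shock proteins are ATP-independent chaperones that bind unfolding proteins and hold them for refolding by the ATP-driven chaperones. Plants are unusual in targeting members of this family to organelles, and 6 such genes of *Arabidopsis thaliana* are described here, chosen by locus identifier from the 32833 genes of the deposited table. HSP23.6-MITO (AT4G25200), HSP23.5 (AT5G51440) and HSP26.5 (AT1G52560) are annotated to mitochondria, HSP21 (AT4G27670) to the chloroplast, HSP22.0 (AT4G10250) to the endoplasmic reticulum and HSP15.7 (AT5G37670) to the peroxisome. In leaves of unstressed plants most genes of the family are nearly silent, and heat stress factors that bind heat shock elements in their promoters switch them on.

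RNA sequencing gave the steady-state level of transcripts in a light-stressed (local) leaf and in an untreated distant (systemic) leaf of the same Col-0 plants, which carry no mutation or transgene and had grown for 4 to 5 weeks. For 15 min a drop of 0.3% agarose with either 50 mM diphenyleneiodonium (DPI, which blocks NADPH oxidases and other flavin enzymes and was used to stop the wave of reactive oxygen species, the ROS wave) or water sat between the leaves, and the local leaf of the high light groups then received 2000 µmol m−2 s−1 for 8 min. This gave 8 groups of 3 libraries, namely high light and control, each under DPI and under water, in systemic and in local leaves. Each library came from leaves of many plants pooled within 1 of 3 biological repeats, so that differences between single plants were not measured. Values are DESeq2-normalized counts, that is reads divided by the size factor of the library. The p-values below come from limma on log2(normalized count + 1) and are adjusted over 18314 tested genes.

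The 24 libraries held 13492454 to 26913744 reads (median 17764651.5), and 3 reads in 1 library, taken here as the floor, corresponded to 2.00 to 4.27 normalized counts. Replicates of a group correlated at 0.987 to 0.994 (Pearson r of log2 values over genes) and differed by more than sampling noise in all 24 pairs (chi-square per degree of freedom 1.51 to 3.57). Photosynthesis genes that define leaf tissue (RBCS1A, CAB1, LHB1B1, LHCA4 and RCA) lay between 81174 and 524582 normalized counts in every library, whereas the seed genes listed stayed at 16.7 or less and the flower genes at 19.7 or less. The seed gene CRU2 and the flower gene AP1 were at 0 throughout.

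The 6 genes lie apart from each other in the genome, in the TAIR10.1 assembly (RefSeq annotation) at chr4:12916926-12918110 on the plus strand for HSP23.6-MITO, chr5:20891163-20892416 plus for HSP23.5, chr1:19574538-19575866 minus for HSP26.5, chr4:13818825-13819971 minus for HSP21, chr4:6370338-6371372 plus for HSP22.0 and chr5:14968758-14969591 plus for HSP15.7. HSP22.0 and HSP15.7 have no intron. The 3 mitochondrial genes and HSP21 have 1 each, of 137 to 285 bases. The exact sequence of none of the 75-base windows of the 6 transcripts, the length of a read, occurred elsewhere in the genome (760 to 1041 windows per gene), and no other protein-coding gene overlapped them.

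The sequence before each gene was searched for the heat shock element, the binding motif of heat stress factors. The stretches below, from the 500 bases before each start codon, are shown because they come nearest to that motif. They are written 5′ to 3′ on the gene's strand, with the 13 matching bases in capitals. The motif searched, on both strands, was GAANNTTCNNGAA or TTCNNGAANNTTC with at most 1 mismatch.

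HSP23.6-MITO, chr4:12916926-12916954 plus: ccccacttCTCCAGAACATTCactcactg
HSP23.5, chr5:20891061-20891089 plus: ccacgcagTTCTAGAACCATCcttaagcg
HSP26.5, chr1:19576115-19576143 minus: tccaaaaaCAAATTTCAAGAAtaatttga
HSP21, chr4:13820056-13820084 minus: caaaacgaGTCGAGAAACTTCgtatcaaa
HSP22.0, chr4:6370379-6370407 plus: aaagatatTTCAAGAAACTTCttcattct
HSP15.7, chr5:14968874-14968902 plus: ccctgggcTTCTCCAAAGTTCtggagtca

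Without a mismatch the motif occurred in the 500 bases of 1 of 6 members (HSP22.0), of 3 of 13 cytosolic small heat shock protein genes and of 1.2% of 27443 protein-coding genes. In the 250 bases before the annotated transcript start it occurred in 0 of 6 members, 2 of 13 cytosolic genes and 0.386% of all genes. The rule was widened after such a stricter search had been run on these same genes, so that the 6 of 6 members with a match under the wider rule, beside 11 of 13 cytosolic genes and 19.2% of all genes, describe the sequences shown and support nothing about the set. The window of HSP22.0 held 3 matches, 2 of which overlap. The matches in the stretches shown began 150 to 181 bases before the start codon in 5 genes and 369 bases before it in HSP26.5. The HSP22.0 match that overlaps no other began 295 bases before it. In HSP23.6-MITO, HSP22.0 and HSP15.7 the stretch shown lies inside the annotated transcript leader. In the 250 bases before the annotated transcript start, 3 of 6 members held a match with at most 1 mismatch (HSP23.5, HSP21 and HSP22.0), against 5 of 13 cytosolic genes and 8.4% of all genes. A match describes letters only, and binding was not measured.

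Complete 250-base promoters are given for HSP23.5 and HSP21, a mitochondrial and a chloroplast member, where the stretch shown lies before the transcript start. The first also overlaps the neighbouring gene AT5G51430.

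HSP23.5 promoter, chr5:20890913-20891162 plus: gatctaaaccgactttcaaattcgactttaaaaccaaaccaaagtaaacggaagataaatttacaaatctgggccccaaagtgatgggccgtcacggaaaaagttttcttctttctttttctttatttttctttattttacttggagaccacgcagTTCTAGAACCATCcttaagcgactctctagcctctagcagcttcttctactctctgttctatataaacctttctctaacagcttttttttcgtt
HSP21 promoter, chr4:13819972-13820221 minus: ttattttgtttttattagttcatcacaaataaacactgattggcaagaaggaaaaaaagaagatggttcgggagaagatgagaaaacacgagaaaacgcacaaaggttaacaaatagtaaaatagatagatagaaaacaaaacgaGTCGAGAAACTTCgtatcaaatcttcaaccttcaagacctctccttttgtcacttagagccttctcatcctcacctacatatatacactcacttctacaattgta

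**Figure D1:**
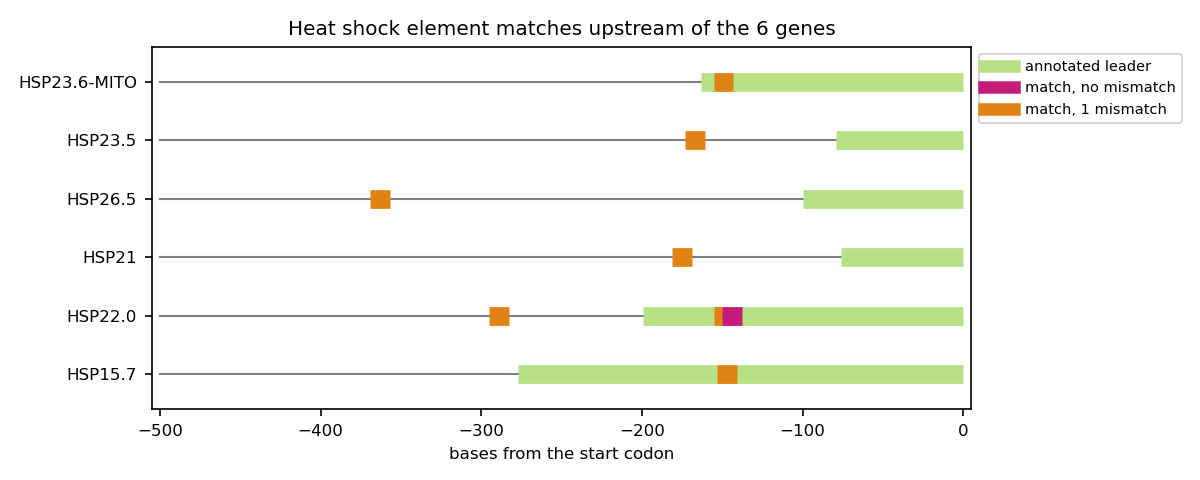
Position of heat shock element matches (13 bases, at most 1 mismatch) in the 500 bases before the start codon of the 6 genes, with the annotated transcript leader in green. The x axis gives bases from the start codon. The 1 match without a mismatch is in HSP22.0 (150 bases before the start codon), and the most distant one is in HSP26.5 (369 bases).

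Light stress raised the transcripts of all 6 organellar small heat shock proteins in the local leaf within 8 min, under both drops, and none of them passed the test as higher in the systemic leaf. In the local leaf they summed to 6485 ± 48.4 normalized counts after light stress under DPI, against 55.7 ± 7.13 in the DPI control, and to 10754 ± 293 after light stress under water, against 57.9 ± 6.87 in the water control (SD, n = 3). Of every 1000000 reads, 335 to 346 came from the set under DPI and 551 to 577 under water, and 1.54 to 3.75 in the other 6 groups. Because whole leaves were sampled, more transcripts per cell and more cells with the transcript cannot be told apart.

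**Figure D2:**
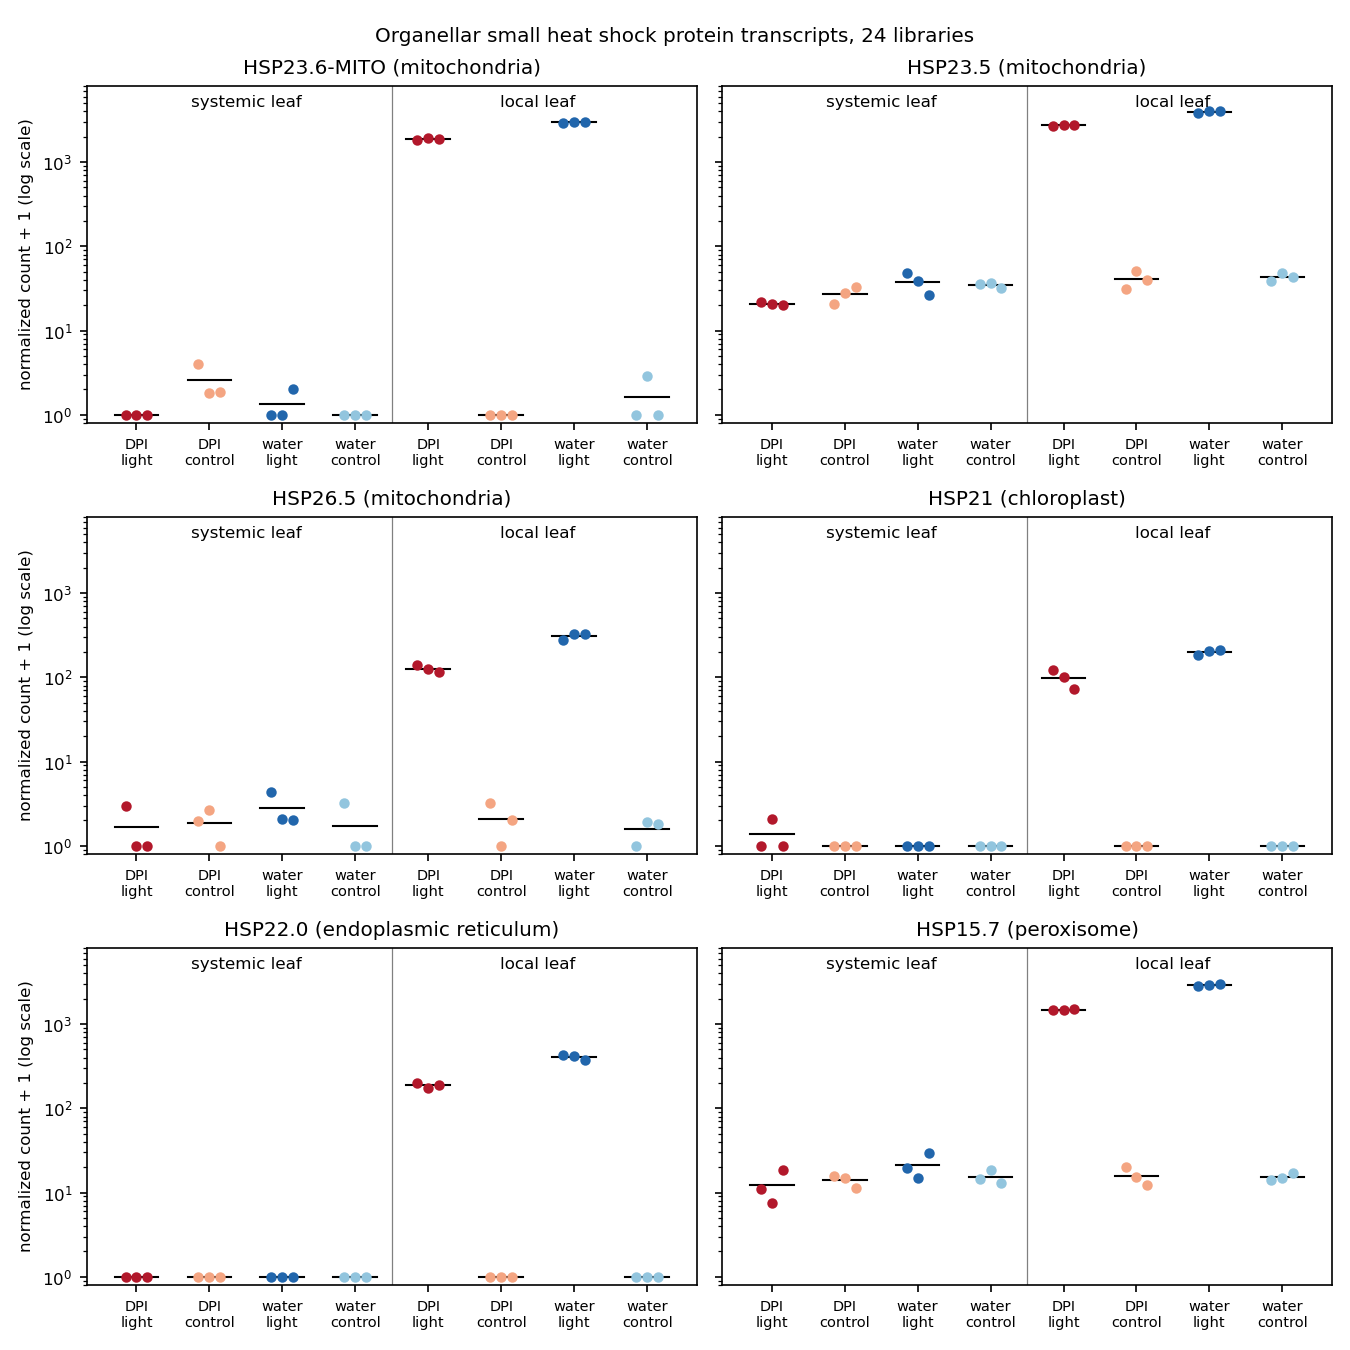
Levels of the 6 transcripts in each of the 24 libraries (points) with group means (lines), as normalized count + 1 on a log scale. The light-stressed local leaves stand apart in every panel, with group means of 97.3 to 2720 under DPI and 198 to 3980 under water, whereas no other group mean exceeds 42.2.

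Among the mitochondrial members, HSP23.6-MITO, a chaperone of the mitochondrial matrix, was nearly silent in control leaves and among the most abundant of the set in lit ones. Its normalized counts were 1835, 1920 and 1880 in DPI high light local leaves, against 0 in all 3 DPI control leaves. Under water they were 2907, 2965 and 3026 in high light leaves, against 0, 1.88 and 0 in control leaves. All light-stressed local leaves thus lay far above all control leaves. Under DPI the level was at least 593-fold higher than the floor of 3 reads per library. Under water the control rested on 2 reads, which gives a ratio of 4876 with a 95% counting interval of 1349 to 40270. The fitted log2 changes, which for a silent control depend on the pseudocount of 1, were 10.88 under DPI (SE 0.414, limma adjusted p 1.03e-23) and 11.03 under water (SE 0.414, 4.43e-24), rank 1 and rank 2 of the 18314 genes.

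HSP23.5, the second matrix chaperone, differed from HSP23.6-MITO in having a measurable basal level. Its counts were 2687, 2723 and 2749 in DPI high light leaves, against 30.6, 49.7 and 38.8 in DPI controls, and 3799, 4066 and 4075 in water high light leaves, against 37.3, 47.0 and 42.4 in water controls. No high light value came near a control value. The level was 68.5-fold higher under DPI (log2 change 6.09, SE 0.167, limma adjusted p 1.5e-28) and 94.3-fold higher under water (6.53, SE 0.167, 8.11e-30), the smallest rise of the 6 under water.

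HSP26.5, a mitochondrial member of lower level, was at 139, 125 and 114 in DPI high light leaves, against 2.27, 0 and 1.02 in DPI controls. Under water it was at 273, 323 and 323 in high light leaves, against 0, 0.939 and 0.815 in control leaves. The groups did not overlap under either drop. The DPI control held 3 reads in all and the water control 2, so that the ratios of 118 (95% counting interval 40.2 to 577) under DPI and 505 (139 to 4177) under water are wide. The fitted log2 changes were 6.08 (SE 0.544, limma adjusted p 3.85e-12) and 7.65 (SE 0.544, 4.77e-15).

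HSP21, which protects thylakoid and nucleoid proteins in the chloroplast, was at 0 in every control library of the local leaf. It reached 121, 99.1 and 71.7 in DPI high light leaves and 183, 203 and 209 in water high light leaves. These levels were at least 30.7-fold and at least 71.8-fold higher than the floor. HSP21 was the least abundant member in the lit leaf, with 248 reads in the DPI high light group and 583 in the water high light group. The limma adjusted p-values of its light response were 8.12e-14 under DPI and 9.11e-16 under water.

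HSP22.0, the endoplasmic reticulum member, was also at 0 in all 6 local control libraries. It rose to 196, 175 and 187 in DPI high light leaves and to 423, 421 and 377 in water high light leaves, at least 58.8-fold and at least 147-fold above the floor. The limma adjusted p-values were 7.3e-17 and 7.78e-19. It is the member that gave 0 reads in every library outside the lit local leaves, 18 in all.

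HSP15.7, which carries a peroxisomal targeting signal, combined a low basal level with a high induced one. Its counts were 1453, 1486 and 1492 in DPI high light leaves, against 19.3, 14.2 and 11.2 in DPI controls, and 2838, 2886 and 2965 in water high light leaves, against 13.1, 14.1 and 16.3 in water controls. The level was 99.2-fold higher under DPI (log2 change 6.57, SE 0.237, limma adjusted p 1.75e-24) and 199.8-fold higher under water (7.55, SE 0.237, 9.94e-27).

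The share of members raised in the local leaf, 6 of 6 under each drop, compares with 17.9% of all tested genes raised (15.9% lowered) under DPI and 17.9% raised (14.4% lowered) under water. HSP23.6-MITO, HSP26.5, HSP21 and HSP22.0 reached the 10 normalized counts in 3 libraries needed for testing only in lit local leaves, so that their part in this count was nearly fixed by the filter, and it is a description only. HSP23.5 and HSP15.7 also passed it through other groups. Light and control libraries did not overlap for any member, a separation in this direction found for 22.8% of all genes under DPI and 22.3% under water. Under water the 6 ranked between 2 and 24 by log2 change among the 18314 genes, and under DPI between 1 and 25. For HSP23.6-MITO, HSP26.5, HSP21 and HSP22.0 the separation was likewise nearly fixed by the filter, and the rank depends on the pseudocount. Both are descriptions only. Over all genes 3276 rose and 2914 fell under DPI, and 3278 rose and 2643 fell under water. Quantile normalization changed that split to 2532 against 4084 under DPI and to 2469 against 4585 under water and left all 6 members raised. edgeR and DESeq2 on the recovered reads also called all 6 under both drops.

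In the local leaf after light stress, the mean level of all 6 transcripts was lower when the drop between the leaves held DPI. As a share of the mean under water, the mean level under DPI was 41.2% for HSP26.5, 45.7% for HSP22.0, 49.1% for HSP21, 51% for HSP15.7, 63.3% for HSP23.6-MITO and 68.3% for HSP23.5. By these means the abundant mitochondrial pair kept the most, and the mitochondrial HSP26.5 the least. The order was not tested. Single DPI libraries ran from 37.3% to 45.5% for HSP26.5 and from 36.2% to 61.1% for HSP21. In all 6 genes the 3 DPI libraries lay below the 3 water libraries, a separation found in the same direction for 23.9% of all tested genes.

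The limma fit over all 24 libraries called 3 of the 6 lower, against 21% of all genes. These were HSP15.7 (log2 difference −0.97, SE 0.237, adjusted p 0.000884), HSP23.5 (−0.55, SE 0.167, adjusted p 0.00714) and, at the threshold, HSP22.0 (−1.12, SE 0.467, adjusted p 0.0497). HSP26.5 (−1.27, SE 0.544, adjusted p 0.0566), HSP21 (−1.05, SE 0.514, 0.0992) and HSP23.6-MITO (−0.66, SE 0.414, 0.206) did not pass. The outcome depended on the spread that was assumed. HSP22.0 lost the call in each of the 6 fits that left out 1 library of the comparison (limma adjusted p 0.0929 to 0.131), and with a pseudocount of 0.5 (0.157), a filter on a mean of at least 50 (0.0508) or the replicate block (0.0702), which called HSP26.5 (0.0380). A limma fit of only these 6 libraries called all 6 genes, with SEs of 0.0366 to 0.150, and so did edgeR and DESeq2, with adjusted p-values for HSP21, the least certain, of 3.04e-06 and 6.65e-06.

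The cytosolic small heat shock proteins, relatives that act outside the organelles, had a smaller median difference, which was not tested against that of the organellar genes. Their median log2 difference between DPI and water in the lit local leaf was −0.53 over 12 tested genes, of which 5 passed the test as lower, against a median of −1.01 for the 6 organellar genes and −0.01 for all tested genes. DPI levels of the 12 were 60.7% to 86.7% of those under water, and 2 of them, AT4G21870 and AT5G54660, overlapped between the drops. Light did not raise these 2 under either drop (log2 change under water −0.23 and 0.09), and the others ran from 60.7% to 72.9%. HSP23.5 and HSP23.6-MITO lie within that range, and the other 4 organellar genes below it.

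**Figure D3:**
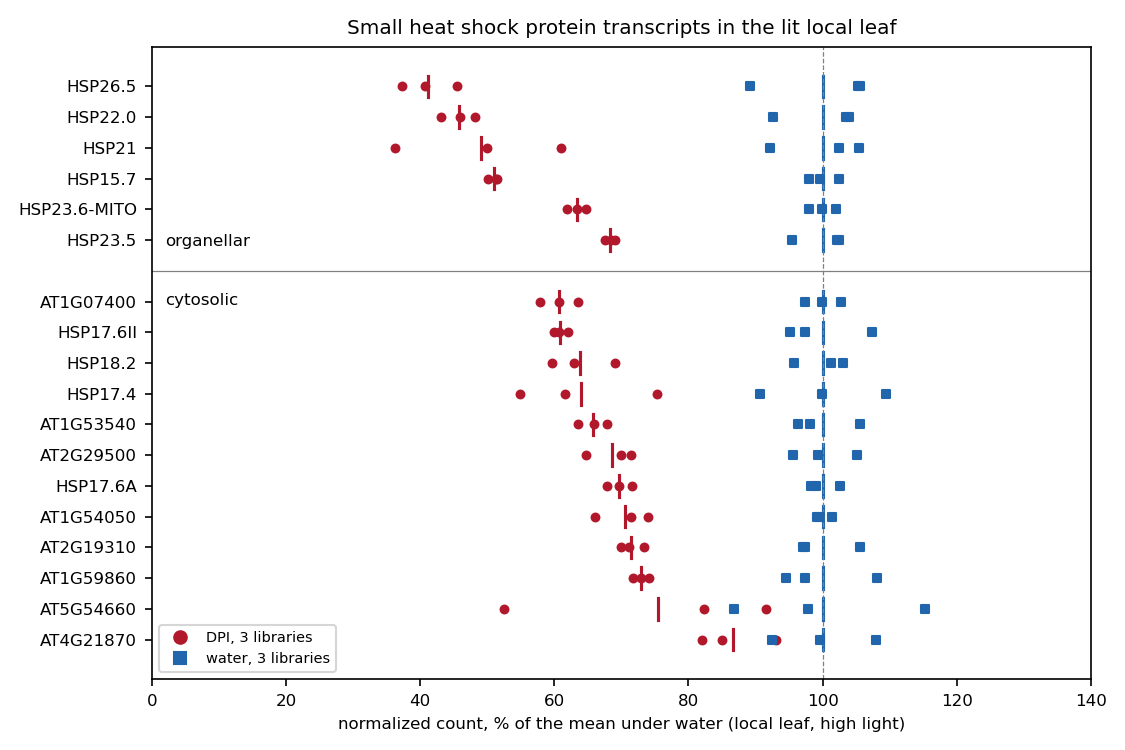
Normalized counts in the light-stressed local leaf as a percentage of the gene's mean under water, for the 6 organellar genes and the 12 tested cytosolic ones. Each row shows 3 DPI libraries and 3 water libraries, with lines at the group means. The organellar means under DPI run from 41.2% (HSP26.5) to 68.3% (HSP23.5).

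Without light stress the drop made no detectable difference to these genes in the local leaf. HSP23.5 was at 39.7 ± 9.59 in DPI controls and 42.2 ± 4.84 in water controls, and HSP15.7 at 14.9 ± 4.06 and 14.5 ± 1.64 (SD, n = 3 each). The other 4 transcripts were at or under the floor in both groups. None of the 6 was called in either direction by limma, edgeR or DESeq2, against 21.5% of all genes called higher and 19% lower under DPI by limma. None had an unadjusted limma p below 0.05.

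The light responses themselves can be set against each other through the drop by light interaction, the response under DPI minus that under water. Only HSP23.5 and HSP15.7 had measurable levels in both local control groups. For HSP21 and HSP22.0, with 0 reads in both, the interaction repeats the difference between the drops in the lit leaf, for HSP26.5 it rests on 3 and 2 control reads, and for HSP23.6-MITO, on 0 and 2, its sign changed with the pseudocount. Of the 6, HSP15.7 alone passed, at −0.98 (SE 0.335, adjusted p 0.0324), against 11.1% of all genes called lower and 8.74% called higher. Its call was lost in 9 of the 12 fits that left out 1 library. These left out any of the 6 lit ones, DPI control replicate 1 (limma adjusted p 0.113) or water control replicates 1 and 2. Over all 22 alternatives the call was lost in 11, quantile normalization among them. It held with edgeR (adjusted p 0.0146) and DESeq2 (0.0130). HSP23.5, the other gene with measurable controls, had −0.44 (SE 0.236, limma adjusted p 0.209).

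The make-up of the set differed between the drops. Counts were divided by transcript length to compare genes, and each gene's share of the 6 was taken in the lit local leaf. HSP23.5 made up 38.1% under DPI (range over libraries 37.9% to 38.5%) and 33.2% under water (32.6% to 33.6%). HSP15.7 made up 27.7% under DPI (27.4% to 27.9%) and 32.3% under water (31.9% to 32.6%). HSP23.6-MITO took 28% under DPI and 26.3% under water. The order of HSP23.6-MITO and HSP15.7 thus differed between the drops, although under DPI their ranges overlapped (27.6% to 28.4% for HSP23.6-MITO). HSP22.0, HSP26.5 and HSP21 took 2.81%, 1.89% and 1.55% under DPI and 3.66%, 2.72% and 1.87% under water, so that a mitochondrial pair and the peroxisomal member supplied nearly all of the set under both drops. The shares of 5 genes did not overlap between the drops, HSP21 being the exception. This count is a description only, because no such count was taken over other genes. The shares of a library also add up to the whole set, so that larger shares of some members require smaller shares of others. HSP23.5 and HSP23.6-MITO had larger shares under DPI although their mean levels were lower there than under water.

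**Figure D4:**
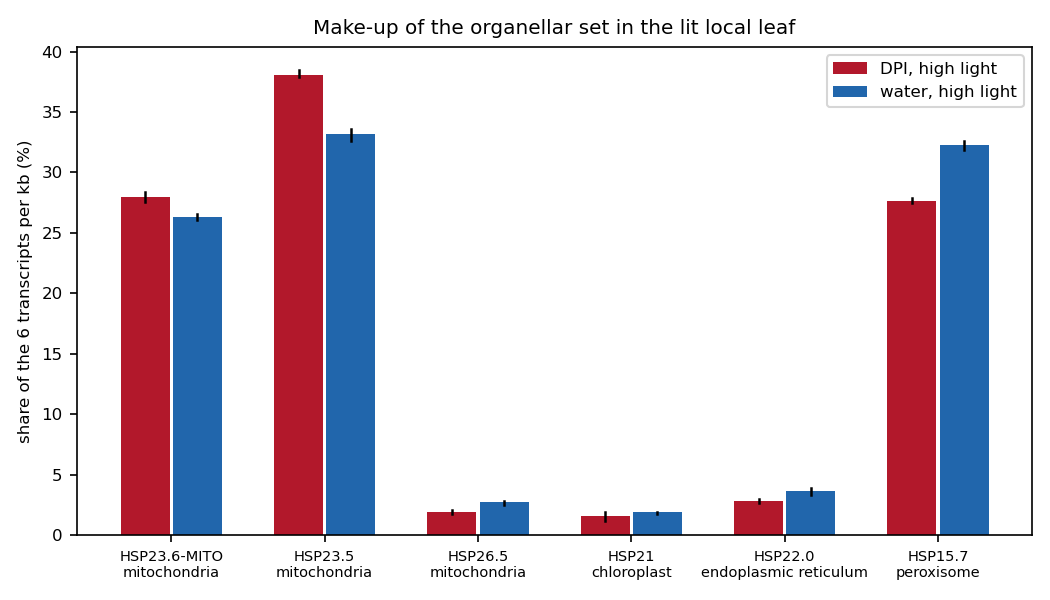
Share of each gene in the summed length-corrected level (normalized count per kb of transcript) of the 6 transcripts in the light-stressed local leaf, under DPI and under water. Bars are means of 3 libraries and black lines run from the lowest to the highest library. HSP23.5, HSP23.6-MITO and HSP15.7 take between 26.3% and 38.1% each, the other 3 genes at most 3.66%.

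In the systemic leaf, the tissue the ROS wave reaches, no member passed the test as higher after light stress. The 6 transcripts summed to 32.3 ± 4.76 normalized counts in DPI high light leaves, against 42.0 ± 2.84 in DPI controls, and to 59.3 ± 8.82 in water high light leaves, against 48.8 ± 4.88 in water controls (SD, n = 3). Under DPI none of the 6 was called higher (7.15% of all genes were) and 1 was called lower (4.56% of all genes). Under water none was called by limma, edgeR or DESeq2 in either direction, against 7.66% of all genes called higher and 3.1% lower by limma. None had an unadjusted limma p below 0.05 under water. Under DPI HSP23.6-MITO and HSP23.5 were lower at that looser threshold, for which no share of all genes was taken. HSP23.5 was called lower there in 1 fit that left out 1 library (limma adjusted p 0.0341). The split over all genes was 1309 higher and 835 lower under DPI, or 1181 and 1142 with quantile normalization, and 1403 and 568 under water, or 1164 and 943.

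Only the genes with a basal level could be followed there. HSP23.5 was at 20.9, 19.7 and 19.2 in DPI high light systemic leaves, against 19.9, 27.2 and 32.3 in DPI controls (log2 change −0.37, SE 0.167, limma adjusted p 0.185), and at 47.3, 37.7 and 25.3 in water high light leaves, against 34.4, 35.3 and 31.4 in water controls (0.08, SE 0.167, 0.856). HSP15.7 was at 9.95, 6.56 and 17.6 in DPI high light leaves, against 14.9, 14.04 and 10.5 in DPI controls (−0.28, SE 0.237, limma adjusted p 0.585), and at 18.7, 14.01 and 28.4 in water high light leaves, against 13.3, 17.7 and 12.03 in water controls (0.44, SE 0.237, 0.287). High light and control leaves overlapped in all 4 of these comparisons. The remaining members had 0 to 5 reads in any systemic group. Among these HSP23.6-MITO, at 0 reads in DPI high light leaves, against 5 reads in DPI controls, is the member called lower (limma adjusted p 0.0392), but all these libraries are at or under the floor and neither edgeR nor DESeq2 called it. The limma call was also lost without any 1 of the DPI high light libraries or without DPI control replicate 1 (adjusted p up to 0.278).

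Between the drops, 2 members were lower under DPI in the systemic leaf after light stress, against 19.6% of all genes. HSP23.5 averaged 19.9 ± 0.871 in DPI leaves and 36.8 ± 11.0 in water leaves (SD, n = 3 each). Its highest DPI library (20.9) lay below its lowest water library (25.3), a separation for which no share of all genes was taken here. The log2 difference was −0.81 (SE 0.167, limma adjusted p 0.000123). HSP15.7 averaged 11.4 ± 5.66 in DPI leaves and 20.4 ± 7.32 in water leaves, with overlapping libraries (−0.83, SE 0.237, adjusted p 0.00442). The HSP15.7 call was lost without DPI high light replicate 2 (limma adjusted p 0.0884), without water high light replicate 3 (0.0727) and in a fit of only these groups (0.0805). HSP23.5 was at 26.46 ± 6.23 in DPI and 33.7 ± 2.05 in water leaves without light stress too (SD, n = 3 each), a log2 difference of −0.36 that did not pass (SE 0.167, limma adjusted p 0.0832) but was called with quantile normalization (0.0429) and without DPI control replicate 3 (0.0228). In systemic controls 1 member was higher under DPI, against 20.7% of all genes, and none was lower, against 18.8%. This was HSP23.6-MITO at 5 reads in the DPI group and 0 in the water group, again at or under the floor. It was called by edgeR but not by DESeq2, and by limma not without DPI control replicate 1 (adjusted p 0.124). The systemic drop by light interaction passed for none of the 6 in limma, edgeR or DESeq2. By limma 2.32% of all genes were called higher and 4.08% lower. HSP23.6-MITO and HSP15.7 had an unadjusted limma p below 0.05, a looser threshold for which no share of all genes was taken. For HSP23.6-MITO this interaction rests on at most 5 reads per group.

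The leaf by light interaction, the systemic response minus the local one, tested the difference between the leaves. It was called negative for 6 of 6 members under DPI, where 7.13% of all genes were negative and 6.04% positive, and for 6 of 6 under water, where 10.3% were negative and 8.52% positive. For the 4 members that entered the tests only through the lit local leaf and have 0 to 5 reads in each systemic group, this restates how they entered, and the 6 of 6 is a description only. HSP23.5 and HSP15.7 were measured in both leaves, with −6.46 and −6.85 under DPI and −6.45 and −7.11 under water. Log2 values lay between −12.13 (HSP23.6-MITO, SE 0.585, limma adjusted p 7.68e-20) and −6.23 (HSP21, SE 0.727, 1.28e-08) under DPI and between −10.69 (HSP23.6-MITO, SE 0.585, 3.98e-18) and −6.45 (HSP23.5, SE 0.236, 6.19e-24) under water. DESeq2 called all 6 under both drops, whereas edgeR called 4 under DPI and 3 under water. The members edgeR left out, HSP21 and HSP22.0 under both drops and HSP23.6-MITO under water, have 2 reads or fewer in each of the 3 groups of the comparison other than the lit local leaf. Over all genes 1106 were called positive and 1305 negative under DPI, or 1508 and 991 with quantile normalization, and 1560 and 1880 under water, or 2345 and 1560.

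By level the 8 groups had the same leading order in all 6 genes. The water high light local leaf came first and the DPI high light local leaf second, and neither overlapped the group after it. The 6 groups that follow overlapped with their neighbours in the order for every gene. No share of all genes was taken for this order, which is a description only. For HSP23.6-MITO, HSP26.5, HSP21 and HSP22.0 the place of the lit local leaves above the other 6 groups was nearly fixed by the filter. Among themselves the 6 transcripts correlated at 0.972 to 0.997 over the 24 libraries (Pearson r of log2 values), a description dominated by the 6 lit local libraries that stand apart from the other 18. The genes most like them outside the set were, by the same measure, HSFA7B (AT3G63350), a heat stress factor, for HSP23.6-MITO (0.993), HSP21 (0.997) and HSP22.0 (0.999), and MTHSC70-2 (AT5G09590), a mitochondrial Hsp70 chaperone, for HSP23.5 (0.996) and HSP15.7 (0.995). HSP26.5 was closest to NAC2 (AT5G04410), a NAC domain protein, and to AT1G26800 (0.981 each). The runners-up were Hsp70b (AT1G16030), a cytosolic Hsp70 chaperone, for HSP23.6-MITO (0.993) and HSP21 (0.995), PDX1.2 (AT3G16050), a protein of vitamin B6 synthesis, for HSP23.5 (0.996), AT5G03990 for HSP22.0 (0.998) and AT1G14200 for HSP15.7 (0.995).

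Other chaperones of the same organelles had smaller median changes in the local leaf. For the organellar small heat shock proteins the median log2 change in the local leaf was 6.58 under DPI and 7.65 under water, near that of the cytosolic small heat shock proteins (6.44 and 8.16), of which 10 of 12 rose under each drop, while the medians over all tested genes were 0.00 and −0.00. The cytosolic values under water spanned −0.23 (AT4G21870, limma adjusted p 0.327) to 11.29 (AT1G53540). Of 11 mitochondrial chaperones 9 rose under DPI (median 0.49) and 7 under water (0.66), from −0.03 for mtHsc70-1 to 3.82 for MTHSC70-2 under water. Of 11 chloroplast chaperones 9 rose under DPI (median 0.44), and 7 rose and 1 fell under water (0.41), with CLPB3, a disaggregase, at 1.80 and CPN60B, a chaperonin subunit that fell, at −0.12.

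In their light response under DPI, most endoplasmic reticulum chaperones went the other way from HSP22.0. Of 10 tested genes 1 rose and 9 fell in the local leaf under DPI (median −0.62), whereas 9 rose and none fell under water (median 0.45). The J-protein ATERDJ3A rose most, by 3.72 under DPI (limma adjusted p 4.41e-24) and 5.39 under water (7.99e-30), and the calreticulin CRT1a had the smallest value under water, 0.03. All 10 had a negative local drop by light interaction that passed the test, against 11.1% of all genes. All 10 were already higher under DPI in the control leaf (median 0.86), against 21.5% of all genes, and HSP22.0 had 0 reads there. In the lit local leaf 7 were lower under DPI than under water, as was HSP22.0, and 1 was higher (median −0.26), against 21% and 21.5% of all genes. Of the peroxisomal proteases, the neighbours of HSP15.7 in its organelle, LON2 rose by 0.25 under DPI and 0.14 under water, and DEG15 had 0.08 and 0.06 and did not pass.

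Heat stress factors with the coactivator MBF1C rose in 10 of 18 tested genes under DPI (median 0.49, 1 fell) and in 11 of 18 under water (median 1.04, none fell). HSFA2, the factor that sustains small heat shock protein expression, rose by 8.03 under DPI (SE 0.104, limma adjusted p 8.43e-40) and 6.86 under water (SE 0.104, 1.56e-37), and MBF1C by 5.31 and 5.27. HSFA6A was lowest under water (−1.15, adjusted p 0.0523). HSFA2 was also lower under DPI than under water in local control leaves, at 69.0 ± 2.98 and 205 ± 27.3 normalized counts (SD, n = 3 each), a log2 difference of −1.55 (limma adjusted p 8.63e-16), and its local drop by light interaction was 1.17 (4.57e-08). In the lit local leaf HSFA2 and MBF1C were lower under DPI, with log2 differences of −0.37 (limma adjusted p 0.00318) and −0.41 (8.73e-05), which were not tested against those of the organellar genes.

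**Figure D5:**
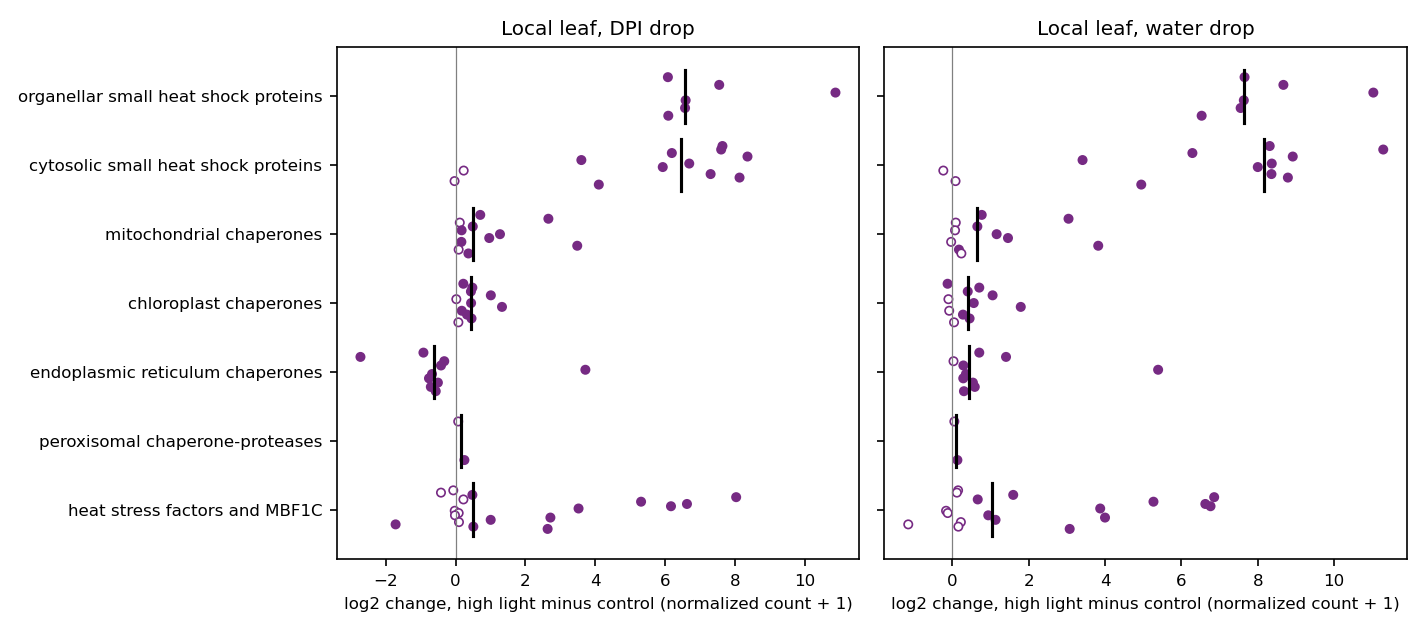
Fitted log2 change (high light minus control, normalized count + 1) in the local leaf under DPI (left) and under water (right) for each tested gene of 7 lists. Filled points passed the limma test and black lines are medians, which for the organellar genes are 6.58 under DPI and 7.65 under water and for endoplasmic reticulum chaperones −0.62 and 0.45.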

How the data were processed

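Leaves of 24 samples (8 groups of 3, as their titles in the labels give them) were sequenced. According to the study's methods and labels, single-end stranded libraries were read for 75 bases, checked with FastQC 0.11.7, aligned with STAR 2.4.0.1 to TAIR10 and normalized with DESeq2 1.20.0. How reads were counted per gene, and whether strand was used, is not given in the sources used here. The values deposited by the authors are a normalized signal, reads per gene divided by the size factor of the library. Dividing by each library's step gave whole reads for 100% of values (relative tolerance 1e-06), whose totals are the depth.

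limma 3.58.1 (R 4.3.3) was fitted to log2(normalized count + 1) of all 24 libraries together, with a trended variance prior. A gene entered the tests with 10 or more normalized counts in 3 or more libraries, which 18314 genes met, the 6 members among them. Tests were two-sided with Benjamini-Hochberg adjustment within each of 12 comparisons and a threshold of 0.05. Comparisons that share a group, such as those using the same control leaves, are not independent. The p-values rest on the spread between the 3 repeats of a group, pooled over all 8 groups and moderated by the prior. For a given gene that spread can differ from the one within the groups compared. Folds against a group at 0 were set against 3 reads per library, and intervals for 1 to 3 reads are exact 95% binomial ones. Both cover counting error only. Alternatives were pseudocounts of 0.5 and 5, no filter, a mean of at least 50, quantile normalization, TMM scaling, a separate fit of the groups compared, a replicate block, edgeR 4.0.16 and DESeq2 1.42.0 on recovered reads, and leaving out each replicate. The test scripts were tested on simulated data.

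Members and gene lists were chosen with earlier results of these data known. The genes named are the 6 members, the 2 genes most correlated with each, and in each list the largest and smallest light response of the local leaf under water, with HSFA2 and MBF1C. Cytosolic genes at the ends of a range in the lit local leaf, and AT5G54660, were named after their values were seen. Symbols and sequence came from the RefSeq TAIR10.1 annotation, in which 32548 of 32833 identifiers were found. The table has no coordinates. Figures were drawn with matplotlib 3.10.9.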

Additional observations from a re-analysis of the deposited data

Results flagged for a closer look

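The response to light differed between the leaves for all 6 genes, by the direct test of systemic minus local response, which for HSP23.6-MITO, HSP26.5, HSP21 and HSP22.0 restates that they entered the tests only through the lit local leaf. Under DPI the log2 differences were −12.13 for HSP23.6-MITO, −6.46 for HSP23.5, −6.35 for HSP26.5, −6.23 for HSP21, −7.55 for HSP22.0 and −6.85 for HSP15.7. Under water they were −10.69 for HSP23.6-MITO, −6.45 for HSP23.5, −6.83 for HSP26.5, −7.64 for HSP21, −8.67 for HSP22.0 and −7.11 for HSP15.7 (limma adjusted p at most 2.99e-08 under DPI and 4.08e-09 under water). The response of HSP15.7 in the local leaf also passed the main test for a difference between the drops. Its log2 difference was −0.98 (DPI minus water, SE 0.335, adjusted p 0.0324 in limma). That call was lost in 11 of 22 alternatives, quantile normalization among them (highest limma adjusted p 0.113).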

How the results depend on the processing

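The rise of all 6 genes in the local leaf under both drops was called under every alternative in which the gene was tested. HSP21 was removed by the filter on a mean of at least 50. HSP23.6-MITO, HSP26.5, HSP21 and HSP22.0 passed the main filter only through lit local leaves, so that for them this agreement is a description only. Log2 changes of HSP21, HSP22.0 and HSP23.6-MITO, silent or nearly so in controls, moved most (for HSP22.0 under water 6.36 to 11.69), whereas those of HSP23.5 under water stayed between 6.40 and 6.61. Counts of members moved under several alternatives. Lower under DPI in the lit local leaf were 6 with a pseudocount of 5, a fit of only the groups compared, edgeR or DESeq2, against 3 in the report and 2 in every fit without 1 replicate. The count for the lit systemic leaf was 1 in a fit of only the groups compared and 1 to 2 without 1 replicate. The local drop by light interaction was called for 4 members with a pseudocount of 5, 3 in a fit of only the groups compared, 0 with quantile normalization and 0 to 1 without 1 replicate, and the systemic one for 0 to 1 without 1 replicate. The member called lower in the DPI systemic leaf was lost (0) with a pseudocount of 5, with edgeR or DESeq2, with quantile normalization and in a fit of only the groups compared, and the count was 0 to 1 without 1 replicate. The member called higher under DPI in systemic controls was lost (0) with a pseudocount of 5, DESeq2, quantile normalization or a separate fit of the groups compared (0 to 1 without 1 replicate), and 1 was called lower there with quantile normalization (0 to 1 without 1 replicate). The leaf by light interaction under water was called for 3 members by edgeR. Quantile normalization gave 4585 genes lower in the local leaf and 943 lower in the systemic leaf under water, and 2345 with a positive leaf by light interaction under water. Some signs changed. With quantile normalization HSP26.5 had −0.11 and HSP15.7 −0.12 for DPI against water in local controls, HSP26.5 −0.23 in systemic controls, and DEG15 −0.014 and CRT1a −0.071 for the local light response under water. The local drop by light interaction of HSP23.6-MITO was 0.091 with a pseudocount of 0.5, 1.91 with edgeR and 0.99 with DESeq2. Without 1 replicate, values of either sign were seen for DPI against water in local controls (HSP23.5 −0.28 to 0.062, HSP26.5 −0.10 to 0.76, HSP15.7 −0.18 to 0.18) and in systemic controls (HSP26.5 −0.065 to 0.80, HSP15.7 −0.22 to 0.035), for the systemic light response (under DPI HSP26.5 −0.80 to 0.029 and HSP15.7 −0.62 to 0.028, under water HSP23.5 −0.12 to 0.32) and for the local drop by light interaction of HSP23.6-MITO (−0.66 to 0.10). The cause of these changes was not tested.

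Same-numbered replicates showed little shared deviation over genes (correlations −0.04 to 0.06 over 60 pairs). This does not exclude a pairing, because local and systemic leaves came from the same plants. The replicate block was set within each leaf type, so that no fit paired the leaves, the leaf by light tests included. With the replicate block the counts of members called were the same as without it (3 lower under DPI in the lit local leaf, where HSP26.5 was called and HSP22.0 was not, and 6 higher in each local light response), and 3422 genes were higher and 2803 lower in the local light response under water. Depth limits what the systemic leaf can show, since HSP22.0 had 0 reads there and HSP23.6-MITO, HSP26.5 and HSP21 at most 5 per group, so that changes below the floor were not detectable.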
